A study of Mus musculus with 12 samples.

Results

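The extracellular matrix and integrin genes were followed on 12 arrays of mouse hippocampus in which a transgene for VP16-CREB was on, off or switched off again. Members were taken by a rule on gene symbols, chosen with earlier results of these data known. It took collagen chains (Col and a digit), laminin chains (Lama, Lamb or Lamc and a digit) and integrin chains (Itga or Itgb, leaving out Itgax). It also took tissue inhibitors of metalloproteinases (Timp and a digit) and matrix metalloproteinases (Mmp and a digit). The rule found 75 of the 8251 genes with a single symbol on the array, measured by 113 of 10833 probe sets. Where a gene had several probe sets (29 genes), the one with the highest mean over the 12 arrays stood for it. By role there were 8 fibrillar collagen genes, 5 of basement membrane collagen, 18 other collagens, 9 laminins, 7 leukocyte integrin chains, 11 other integrin chains, 3 TIMPs and 13 MMPs. Itgb1bp1, which encodes a protein that binds an integrin tail and is no integrin chain itself, also matched and was kept apart.

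Collagens and laminins are secreted proteins that assemble outside the cell. Type IV collagen and laminins form the basement membrane, which in brain lies around blood vessels and under the meninges, while fibrillar collagens such as type I are made mainly by fibroblasts and are sparse in the tissue between neurons. Integrins are pairs of an alpha and a beta chain in the cell membrane that grip the matrix or other cells. The beta chain Itgb2 is restricted to leukocytes, microglia among them. MMPs are proteases that cut matrix proteins, and TIMPs inhibit them.

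VP16-CREB joins the transcription factor CREB to a viral activation domain, and doxycycline (dox) keeps it off in the transgenic (VC) mice. The never-induced group held 3 hippocampal arrays, 2 of wild-type mice and 1 of VC mice kept on dox. Induced hippocampus was that of VC mice off dox for 1 week (2 arrays), 2 weeks (2 arrays) or 5 weeks (1 array). A reversed sample (n = 1) had the transgene on for 3 weeks and then off for 2 weeks; its title calls it VC and its description wild type. The CA1 subfield, cut out of the hippocampus, was taken from wild-type mice (1 array) and VC mice off dox for 3 weeks (2 arrays). Each whole-hippocampus sample pooled 6 to 10 mice, so an array is a pool and not an animal. Not given in the sources used here are strain, age, sex and the promoter behind the transgene. The question behind the series is which genes accompany the easier induction of late long-term potentiation in these mice.

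Values are log2 of the array intensity after rescaling each array to a trimmed mean of 1000, with a floor at 65.7 (6.04 on the log2 scale), so 6.04 means at or under the floor. Levels of different probe sets cannot be set against each other. Creb1, whose probe sets could read the transgene, had 2 that were tested. The brighter read 6.04 to 6.33 on the never-induced arrays, 8.31 to 9.63 on the 5 induced hippocampal arrays, 7.10 after reversal, and 6.04 in wild-type CA1 against 8.86 and 9.56 in VC. The dimmer read 6.36 to 7.66, 8.14 to 9.15, 7.68, and 6.04 against 7.69 and 8.80 on the same arrays, so after reversal only the brighter lay clearly above the never-induced range. Correlations between arrays over the tested probe sets were 0.93 to 0.98 within hippocampus, 0.91 to 0.95 within CA1 and 0.83 to 0.92 between them. Of the 14 neuronal markers measured, none lay at the floor on any array except Map2 on the array of 2 weeks, replicate 2. A bulk sample cannot tell fewer cells of a type from less RNA per cell.

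A gene was tested when at least 2 arrays had its probe set above their own median. Of the 75 members 35 were tested: 4 fibrillar, 2 basement membrane and 11 other collagens, 5 laminins, 2 leukocyte and 5 other integrin chains, 3 TIMPs, 2 MMPs and Itgb1bp1. The 40 members under the filter included Col3a1, the second major fibrillar collagen, Col4a3, Col4a4 and Col4a5 of the basement membrane, the leukocyte chains Itgam, Itgal, Itgae, Itga4 and Itgb2l, and 11 of 13 MMPs. The others of these 40 were Col2a1, Col5a2, Col8a1, Col10a1, Col11a1, Col13a1, Col14a1, Col15a1, Col17a1, Col22a1, Itga2, Itga5, Itga6, Itga8, Itgb3, Itgb4, Lama1, Lama3, Lama4 and Lamb3. Col22a1, Itga5, Mmp7, Mmp16 and Mmp24 lay at the floor on all 12 arrays, and 12 of the 40 on at least 10 arrays. The highest single value among these 40 was 9.28, for Itgb4 in wild-type CA1.

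**Figure D1:**
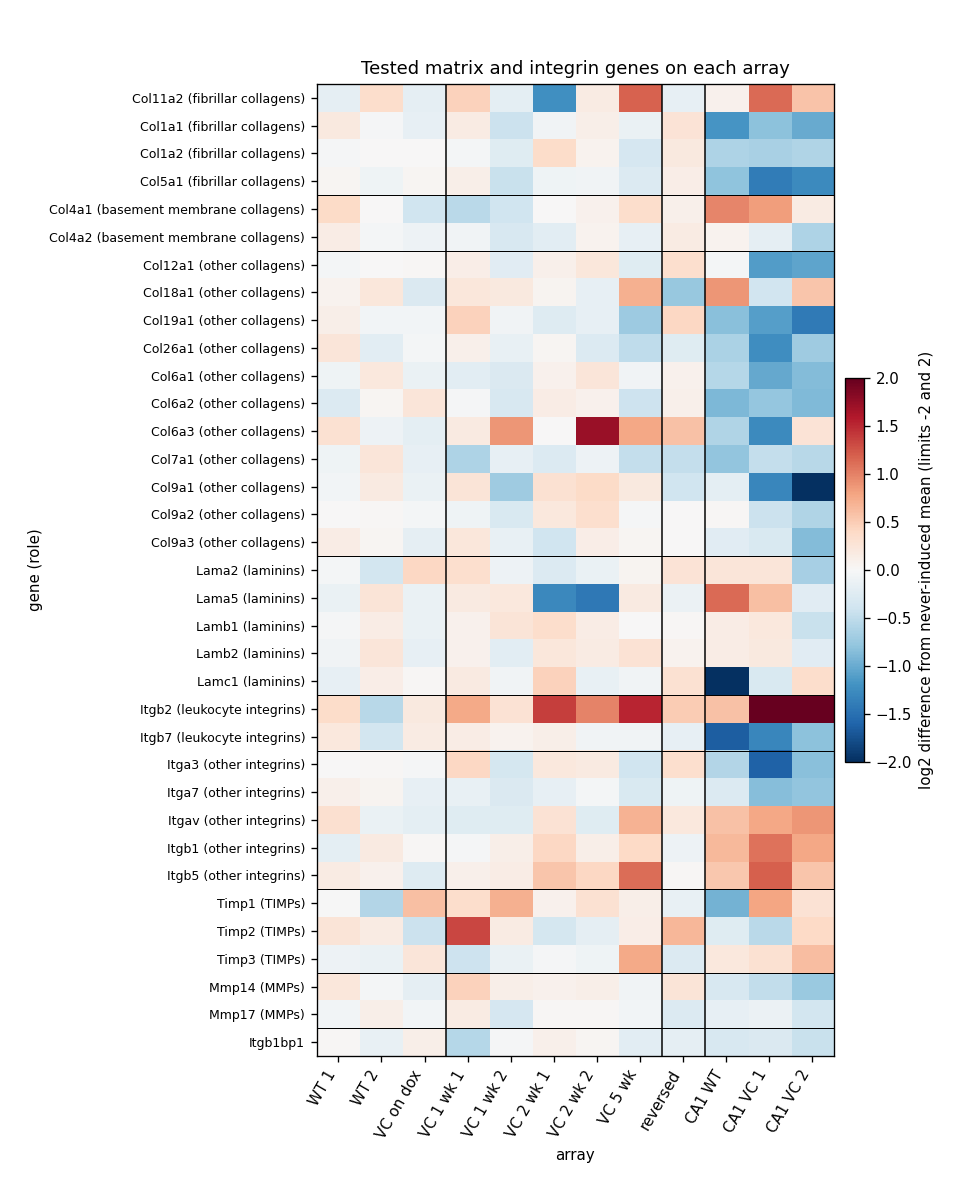
Each tile is the log2 value of 1 tested member (vertical axis, by role) on 1 array (horizontal axis) minus the mean of the 3 never-induced hippocampal arrays; red is higher, blue lower, and colours stop at -2 and 2. Itgb2 is red from 2 weeks on and darkest in VC CA1, most collagens are blue in the 3 CA1 columns, and Lamc1 is dark blue in wild-type CA1 only.

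Within whole hippocampus no member passed the test, at any time or after reversal. For induced against never-induced hippocampus, 0 of 35 members had an adjusted p under 0.05 (limma with Benjamini-Hochberg adjustment over all 7069 tested probe sets), against 0.0283% of all tested probe sets, and 1 member had an unadjusted p under 0.05, against 3.15%. The members' median log2 difference was 0.01, beside -0.02 over all tested probe sets. With its brightest probe set, no tested member had all 5 induced arrays above or below all 3 never-induced ones, which 3.37% of all tested probe sets showed. Each time point was then set against the same 3 never-induced arrays.

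At 1 week 0 members passed and 0 had an unadjusted p under 0.05 (0.0283% and 5.01% of all tested probe sets). At 2 weeks 0 passed and 2 had an unadjusted p under 0.05, Itgb2 and Lama5 (0.156% and 4.46%). At 5 weeks 0 passed and 6 had an unadjusted p under 0.05 (0.99% and 7.3%): Itgb2, Itgb5, Timp3, Itgav and Col11a2 lay above and Col19a1 below the never-induced arrays. The late arrays of 2 and 5 weeks set against 1 week gave 0 passes and 7 unadjusted p under 0.05, 5 above and 2 below (0.58% and 7.98%). The reversed array gave 0 and 0 (0% and 2.55%). The members' medians were -0.02 at 1 week, 0.04 at 2 weeks, -0.03 at 5 weeks and 0.07 after reversal, beside -0.01, -0.01, -0.03 and 0.02 over all tested probe sets. The 5-week and reversed groups each held 1 array, whose spread was taken to be that of the replicated groups.

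Of the leukocyte integrin chains, Itgb2 had the smallest p of all members in induced hippocampus. Itgb2 pairs with alpha chains such as Itgam and Itgal to make the receptors that leukocytes and microglia use to adhere and to take up complement-coated material. It read 6.94 and 6.04 on the wild-type arrays, 6.77 with dox, 7.34 and 6.87 after 1 week off dox, 7.97 and 7.57 after 2, 8.11 after 5 and 7.09 once reversed. All 3 late arrays lay above every other hippocampal array, and wild-type array 2 was at the floor. The log2 difference was 0.99 ± 0.29 SE over the 5 induced arrays (8 arrays in all; adjusted p = 0.999, limma), 0.52 ± 0.29 SE, adjusted p = 0.969 at 1 week, 1.18 ± 0.29 SE, adjusted p = 0.377 at 2 weeks and 1.52 ± 0.36 SE, adjusted p = 0.159 at 5 weeks. Between the late arrays and 1 week it was 0.83 ± 0.29 SE, adjusted p = 0.474, so none of these passed. After reversal the array lay above all 3 never-induced arrays and below all 3 late ones.

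Microglial genes were also higher on the 2-week and 5-week arrays. On 1-week array 1, where Itgb2 (7.34) lay above the never-induced range, their sum lay within it. The 19 measured markers of microglia and macrophages summed to 19891 to 23322 scaled units on the never-induced arrays, 20541 and 20727 at 1 week, 36014 and 40146 after 2 weeks off dox, 70720 after 5 and 30762 once reversed. Of these 19 markers 16 were tested and 9 rose at 5 weeks (limma), and between 1 and 3 lay at the floor on the never-induced arrays. Fcer1g, on 8 of the 12 arrays, and Ptprc, on 6, were at the floor most often. The part of these cells in the Itgb2 values was not tested.

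Its partner chain Itgam lay under the filter. It read 6.17 and 6.10 on the wild-type arrays, 6.04 with dox, 8.21 and 6.24 after 1 week off dox, 6.04 and 6.39 after 2, 8.42 after 5 and 6.37 once reversed, so 1 of 2 arrays at 1 week and the array at 5 weeks stood apart from the rest, which were at or near the floor. In CA1 Itgam read 6.04 in wild-type CA1 against 6.04 and 8.69 in VC, with the 2 VC arrays far apart. Itgal, the alpha chain of the lymphocyte receptor LFA-1, was also under the filter: in hippocampus it was at most 6.32, and it read 7.41 in wild-type CA1 against 7.72 and 7.72 in VC. All 3 CA1 arrays lay above all 9 hippocampal ones. Since 6 of the 9 hippocampal arrays were at the floor, which narrows their spread, no p is given for Itgal.

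Itgb7, which pairs with Itga4 or Itgae on lymphocytes, did not follow Itgb2 in hippocampus, where it read 9.68 and 9.09 on the wild-type arrays, 9.62 with dox, 9.61 and 9.54 after 1 week off dox, 9.59 and 9.39 after 2, 9.39 after 5 and 9.30 once reversed. The 2-week and 5-week arrays fell within the range of the never-induced ones.

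Among the integrin chains that many cell types carry, Itgb5 and Itgav showed the widest gaps at 5 weeks. Together they form a receptor for vitronectin, and Itgb5 is among the integrin genes that microglia express strongly. Itgb5 read 10.68 and 10.61 on the wild-type arrays, 10.27 with dox, 10.62 and 10.67 after 1 week off dox, 11.07 and 10.94 after 2, 11.63 after 5 and 10.54 once reversed. The 5-week array was the highest and the 2 arrays of 2 weeks came next, all above the never-induced ones, and the difference was 1.12 ± 0.28 SE, adjusted p = 0.188 at 5 weeks and 0.49 ± 0.22 SE, adjusted p = 1 at 2 weeks. A second tested Itgb5 probe set went the other way: it read 9.45 and 9.24 on the wild-type arrays, 9.13 with dox, 9.35 and 8.96 after 1 week off dox, 9.36 and 9.41 after 2, 9.03 after 5 and 9.40 once reversed, with the 5-week array below all 3 never-induced ones (log2 difference -0.24 ± 0.24 SE, adjusted p = 0.968). The 2 probe sets of Itgb5 therefore disagree at 5 weeks.

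Itgav read 11.50 and 11.04 on the wild-type arrays, 10.98 with dox, 10.93 and 10.92 after 1 week off dox, 11.47 and 10.94 after 2, 11.87 after 5 and 11.39 once reversed, with the 5-week array above every other hippocampal array (0.70 ± 0.28 SE, adjusted p = 0.591). Its other tested probe set read 8.88 to 9.02 on the never-induced arrays and 8.76 at 5 weeks, so the gap was not seen with both. Itgb1 is the beta chain shared by most receptors for collagen and laminin. It read 11.25 and 11.61 on the wild-type arrays, 11.46 with dox, 11.42 and 11.55 after 1 week off dox, 11.85 and 11.56 after 2, 11.83 after 5 and 11.33 once reversed; 2-week array 1 and the 5-week array were the highest, and 2-week array 2 lay inside the never-induced range. Induced against never-induced hippocampus gave 0.21 ± 0.15 SE, adjusted p = 0.999 for Itgb1. With its second tested probe set all 5 induced arrays (10.29 to 10.51) lay above all 3 never-induced ones (10.14 to 10.27). The difference there was 0.20 ± 0.19 SE (adjusted p = 0.999, limma).

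Itga7, an alpha chain that binds laminin, read 10.03 and 9.98 on the wild-type arrays, 9.77 with dox, 9.78 and 9.64 after 1 week off dox, 9.77 and 9.88 after 2, 9.62 after 5 and 9.85 once reversed. Its difference for induced hippocampus was -0.19 ± 0.12 SE, adjusted p = 0.999, and the groups overlapped. The other tested Itga7 probe set read 9.66 to 10.08 on the never-induced arrays. Both 1-week arrays lay below these, at 9.52 and 9.07 (-0.61 ± 0.20 SE, unadjusted p = 0.0168, adjusted p = 0.969, limma). Itga3, another laminin-binding alpha chain, read 8.85 and 8.86 on the wild-type arrays, 8.82 with dox, 9.25 and 8.49 after 1 week off dox, 9.05 and 9.03 after 2, 8.45 after 5 and 9.19 once reversed, with the lowest arrays at 5 weeks and in 1-week replicate 2.

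**Figure D2:**
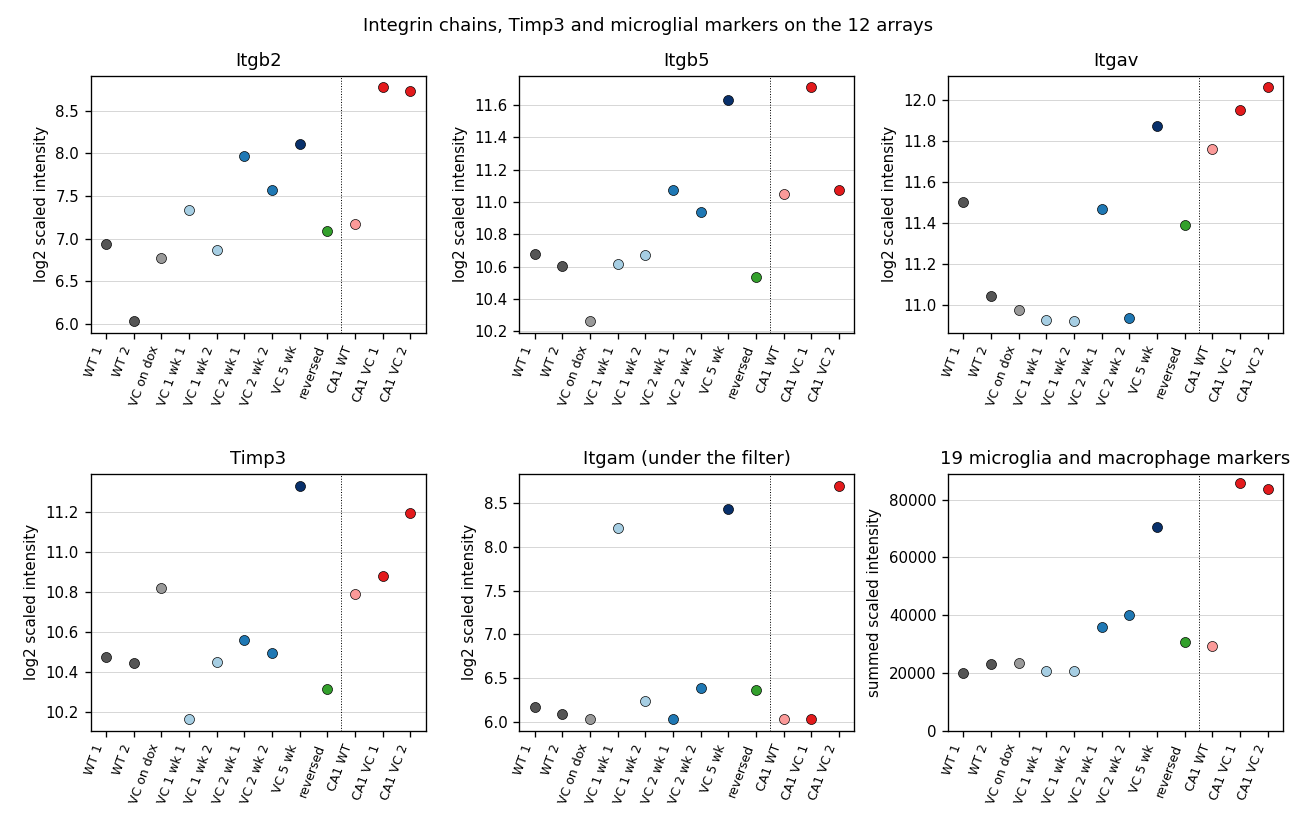
Log2 scaled intensity (vertical axis) of Itgb2, Itgb5, Itgav, Timp3 and Itgam on the 12 arrays (horizontal axis; the dotted line parts hippocampus from CA1), and in the last panel the summed scaled intensity of 19 microglial and macrophage markers. Itgb2 and the marker sum are both higher at 2 weeks than on the never-induced and 1-week arrays. Both are higher again at 5 weeks and in VC CA1, where the sums are 85668 and 83631. On 1-week array 1 Itgb2 (7.34) is above the never-induced arrays and the marker sum (20541) is not.

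Of the 5 tested laminins, read with their brightest probe sets, Lama5 stood apart at 2 weeks and the others did not. Laminins are trimers of an alpha, a beta and a gamma chain, and Lama5 gives the alpha chain found in the basement membrane of blood vessels. Lama5 read 8.22 and 8.63 on the wild-type arrays, 8.24 with dox, 8.54 and 8.57 after 1 week off dox, 7.08 and 6.93 after 2, 8.55 after 5 and 8.25 once reversed. Both arrays of 2 weeks lay more than 1 log2 unit below the other 7 hippocampal arrays, which span 8.22 to 8.63. The difference was -1.36 ± 0.25 SE, adjusted p = 0.13, and 5 weeks lay back among the never-induced values (0.18 ± 0.32 SE, adjusted p = 0.997). With either VC CA1 array left out of the fit, which changes only the estimate of spread, its adjusted p was 0.028. A second Lama5 probe set, under the filter, read 7.94 and 6.29 at 2 weeks against 7.78 to 8.19 on the never-induced arrays, so only the second array was low with both.

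The promoter of Lama5, which stood apart at 2 weeks, is shown as 1 of 7 member promoters that hold the short cAMP response element. That element is the letters TGACG on either strand, which CREB can bind. It was in 12.1% of the member promoters, against 20.8% of all promoters. Binding of CREB to these promoters was not tested. The sequence is from RefSeq on GRCm38.p6, chr2:180225810-180226109, minus strand, 250 bases before to 50 bases after the start, and the capitals mark the motif, which begins 49 bases before the start.
Lama5: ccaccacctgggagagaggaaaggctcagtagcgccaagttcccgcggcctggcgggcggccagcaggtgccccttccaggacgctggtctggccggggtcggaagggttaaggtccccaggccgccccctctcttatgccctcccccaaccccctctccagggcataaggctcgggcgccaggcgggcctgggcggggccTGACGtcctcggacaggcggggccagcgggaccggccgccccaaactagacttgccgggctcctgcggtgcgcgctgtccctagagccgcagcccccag

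With their brightest probe sets the remaining laminins varied little within hippocampus. Lamc1, the gamma chain of most laminins, read 9.26 and 9.54 on the wild-type arrays, 9.44 with dox, 9.58 and 9.34 after 1 week off dox, 9.87 and 9.26 after 2, 9.35 after 5 and 9.72 once reversed, a range of 9.26 to 9.87 with no order by time. Lamb1 read 9.21 and 9.37 on the wild-type arrays, 9.10 with dox, 9.32 and 9.49 after 1 week off dox, 9.58 and 9.37 after 2, 9.23 after 5 and 9.25 once reversed. Lama2, the alpha chain whose loss causes a muscular dystrophy, read 8.06 and 7.73 on the wild-type arrays, 8.51 with dox, 8.44 and 8.0 after 1 week off dox, 7.82 and 7.96 after 2, 8.16 after 5 and 8.38 once reversed. In all 3, induced and never-induced arrays overlapped with these probe sets (log2 differences 0.07, 0.17 and -0.02). The other Lamb1 probe set, under the filter, went the other way. It read 7.93 to 8.19 on the 3 never-induced arrays and 7.53 to 7.78 on the 5 induced ones, so all induced arrays were lower. Lamb2 ranged from 8.15 to 8.64 over the 9 arrays.

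No collagen passed the test with the transgene in hippocampus. Type I collagen, the chief fibrillar collagen of meninges and vessel walls, is made of Col1a1 and Col1a2 chains. Col1a1 read 10.23 and 10.02 on the wild-type arrays, 9.87 with dox, 10.21 and 9.62 after 1 week off dox, 9.97 and 10.16 after 2, 9.91 after 5 and 10.31 once reversed. Col1a2 read 12.03 and 12.07 on the wild-type arrays, 12.06 with dox, 12.01 and 11.81 after 1 week off dox, 12.42 and 12.12 after 2, 11.72 after 5 and 12.25 once reversed. The lowest Col1a1 array was 1-week replicate 2 and the lowest Col1a2 array the one at 5 weeks, so the pair shared no time course. Col3a1, under the filter, read 7.33 and 6.41 on the wild-type arrays, 6.68 with dox, 6.92 and 7.29 after 1 week off dox, 7.38 and 7.23 after 2, 6.66 after 5 and 7.56 once reversed. Col11a2, a minor fibrillar chain, had the widest spread of the tested fibrillar collagens, from 6.51 in 2-week array 1 to 8.92 at 5 weeks (1.19 ± 0.52 SE, adjusted p = 0.679 at 5 weeks).

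Type IV collagen of the basement membrane is chiefly made of Col4a1 and Col4a2. Col4a1 read 10.40 and 10.03 on the wild-type arrays, 9.62 with dox, 9.48 and 9.62 after 1 week off dox, 10.02 and 10.10 after 2, 10.37 after 5 and 10.12 once reversed, with 1-week array 1 the lowest and 1-week array 2 level with the lowest never-induced array (9.62 on both) (-0.46 ± 0.26 SE, adjusted p = 0.969). Against 1 week the late arrays were all higher (0.66 ± 0.27 SE, adjusted p = 0.573). Col4a2 read 11.39 and 11.21 on the wild-type arrays, 11.15 with dox, 11.18 and 10.92 after 1 week off dox, 11.04 and 11.32 after 2, 11.09 after 5 and 11.41 once reversed and did not share that order.

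Among the other collagens, Col19a1, which hippocampal interneurons are known to express, was lowest at 5 weeks. It read 8.98 and 8.81 on the wild-type arrays, 8.82 with dox, 9.33 and 8.81 after 1 week off dox, 8.62 and 8.70 after 2, 8.14 after 5 and 9.28 once reversed, and the difference was -0.73 ± 0.24 SE, adjusted p = 0.437 at 5 weeks and -0.67 ± 0.20 SE, adjusted p = 0.346 for the late arrays against 1 week. Col6a3, a chain of the beaded filaments of type VI collagen, read 8.08 and 7.67 on the wild-type arrays, 7.59 with dox, 7.97 and 8.66 after 1 week off dox, 7.79 and 9.51 after 2, 8.55 after 5 and 8.36 once reversed. The value of 9.51 came from 1 of 2 arrays at 2 weeks, and the other lay within the never-induced range (0.87 ± 0.56 SE, adjusted p = 1). Col7a1, the anchoring fibril collagen, read 8.78 and 9.11 on the wild-type arrays, 8.71 with dox, 8.25 and 8.70 after 1 week off dox, 8.59 and 8.77 after 2, 8.39 after 5 and 8.38 once reversed, with both 1-week arrays under the never-induced ones, replicate 2 only just (-0.39 ± 0.20 SE, adjusted p = 0.969).

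After reversal the smallest p among the members belonged to Col18a1, the collagen that yields endostatin, counted here among the other collagens. All but its brightest probe set lay under the filter, and the values given are those of the brightest. Col18a1 read 8.20 and 8.35 on the wild-type arrays, 7.84 with dox, 8.35 and 8.33 after 1 week off dox, 8.19 and 7.96 after 2, 8.83 after 5 and 7.37 once reversed. The reversed array was the lowest (-0.76 ± 0.39 SE). Col12a1, a collagen on the surface of fibrils, read 8.41 and 8.46 on the wild-type arrays, 8.48 with dox, 8.58 and 8.23 after 1 week off dox, 8.55 and 8.68 after 2, 8.20 after 5 and 8.79 once reversed, with the reversed array the highest (0.34 ± 0.22 SE, adjusted p = 1). Of the type IX chains, which decorate type II fibrils in cartilage, Col9a1 read 8.90 and 9.13 on the wild-type arrays, 8.82 with dox, 9.20 and 8.24 after 1 week off dox, 9.26 and 9.33 after 2, 9.15 after 5 and 8.56 once reversed. Col9a2 read 9.91 and 9.91 on the wild-type arrays, 9.86 with dox, 9.80 and 9.59 after 1 week off dox, 10.11 and 10.23 after 2, 9.86 after 5 and 9.91 once reversed. Both arrays of 2 weeks lay above the never-induced ones for both chains, without passing (Col9a2: 0.28 ± 0.15 SE, adjusted p = 1).

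The 3 TIMPs on the array were all tested, and none passed in hippocampus. Timp3, the inhibitor that is bound to the matrix, read 10.48 and 10.45 on the wild-type arrays, 10.82 with dox, 10.17 and 10.45 after 1 week off dox, 10.56 and 10.49 after 2, 11.33 after 5 and 10.32 once reversed. The 5-week array was the highest and the other induced arrays lay within or under the never-induced range (0.75 ± 0.24 SE, adjusted p = 0.377 at 5 weeks). Timp1, the secreted inhibitor that reactive astrocytes make in response to cytokines, read 10.62 and 10.04 on the wild-type arrays, 11.22 with dox, 10.98 and 11.33 after 1 week off dox, 10.71 and 10.94 after 2, 10.74 after 5 and 10.48 once reversed, where the array on dox was among the highest, so the groups overlapped (0.31 ± 0.25 SE, adjusted p = 0.999). Timp2, an inhibitor that also helps Mmp14 to activate Mmp2, read 9.69 and 9.59 on the wild-type arrays, 9.0 with dox, 10.76 and 9.58 after 1 week off dox, 9.07 and 9.25 after 2, 9.55 after 5 and 10.09 once reversed. Its high value was 1 of 2 arrays at 1 week, and the other (9.58) lay beside wild type (0.75 ± 0.40 SE, adjusted p = 0.969).

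Timp1 is shown with its promoter because it had the largest difference of the 3 between VC and wild-type CA1 (1.48) and holds the short element, 84 bases before the start. The sequence is from RefSeq on GRCm38.p6, chrX:20869916-20870215, plus strand, with the motif in capitals.
Timp1: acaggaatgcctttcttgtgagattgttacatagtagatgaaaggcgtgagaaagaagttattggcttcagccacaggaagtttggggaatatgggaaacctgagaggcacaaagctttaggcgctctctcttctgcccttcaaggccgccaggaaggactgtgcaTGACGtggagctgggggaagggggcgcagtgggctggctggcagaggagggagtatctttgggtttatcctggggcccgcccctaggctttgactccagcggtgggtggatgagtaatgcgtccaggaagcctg

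Of the 75 members 51 had a RefSeq promoter entry on GRCm38.p6, 58 entries in all. The full cAMP response element TGACGTCA, searched on both strands, was in 0 of these 58, against 1.79% of all 32851 promoters of the same length. The short element TGACG, which every full element also contains, was in 7 of 58 (12.1%, against 20.8% of all): Col4a5, Col7a1, Col11a2, Itgb1, Lama5, Lamb2 and Timp1. A match describes letters and not binding.

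The MMPs were the members the array saw least. Only Mmp14 and Mmp17, both anchored in the membrane, were tested. Mmp14, the activator of Mmp2, read 10.60 and 10.34 on the wild-type arrays, 10.20 with dox, 10.83 and 10.50 after 1 week off dox, 10.46 and 10.49 after 2, 10.31 after 5 and 10.63 once reversed. Mmp17 read 10.86 and 11.04 on the wild-type arrays, 10.87 with dox, 11.09 and 10.59 after 1 week off dox, 10.94 and 10.95 after 2, 10.87 after 5 and 10.65 once reversed. Induced and never-induced arrays overlapped for both. Mmp2, gelatinase A, stayed under the filter and read 7.95 and 7.07 on the wild-type arrays, 7.64 with dox, 8.04 and 7.73 after 1 week off dox, 7.84 and 8.04 after 2, 7.32 after 5 and 8.08 once reversed. Mmp9, gelatinase B, which neurons are known to secrete during plasticity, was at the floor on all 9 hippocampal arrays and read 6.04 in wild-type CA1 against 6.04 and 6.31 in VC.

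Mmp3, Mmp7, Mmp10, Mmp12 and Mmp13 lie near each other on chromosome 9, and all 5 had at least 1 promoter entry with the AP-1 letters TGANTCA, which Fos and Jun dimers can bind. Mmp8, which lies between Mmp10 and Mmp7, had an entry without these letters, and it was at the floor on 11 of 12 arrays. The motif was in 7 of 58 member promoters (12.1%, against 7.81% of all), the other 2 being Col6a1 and Itga3. The 30 bases around each match in these 5 genes are shown because these are the genes of the cluster that carry the motif. They are from RefSeq on GRCm38.p6, plus strand, at chr9:7445765-7445794 for Mmp3, chr9:7692016-7692045 for Mmp7, chr9:7502268-7502297 for Mmp10, chr9:7347319-7347348 for Mmp12 and chr9:7272468-7272497 for Mmp13, with the motif in capitals, 35 to 63 bases before the start.
Mmp3: ggaagcaattaTGAGTCAgttttcgggtga
Mmp7: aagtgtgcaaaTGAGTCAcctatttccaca
Mmp10: tagcacccatgTGAGTCAtgcttagtgacc
Mmp12: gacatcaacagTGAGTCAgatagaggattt
Mmp13: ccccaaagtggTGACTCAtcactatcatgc

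Beside these motifs the 5 genes were dim: none was tested. Mmp7 was at the floor on all 12 arrays, and Mmp10 and Mmp3 on all 9 hippocampal ones. Mmp13 read 6.47 and 6.39 on the wild-type arrays, 6.62 with dox, 6.17 and 6.04 after 1 week off dox, 6.04 and 6.04 after 2, 6.04 after 5 and 6.04 once reversed, and the 3 never-induced arrays gave its 3 highest values. Mmp12, the macrophage elastase, ranged from 6.75 to 8.0 over the 9 hippocampal arrays, and both its lowest and its highest value came from induced arrays.

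In CA1, 1 member passed, Lamc1, which was higher on the VC arrays than on the single wild-type array. VC CA1 was set against wild-type CA1 with 2 arrays against 1. Of 35 members 1 passed (0.467% of all tested probe sets) and 7 had an unadjusted p under 0.05 (10% of all), 3 above and 4 below. The members' median was -0.17, beside -0.02 over all tested probe sets. That wild-type array sets the base of every value in this comparison.

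Lamc1 read 7.27 in wild-type CA1 against 9.11 and 9.76 in VC. It was 4.48-fold higher in VC (log2 difference 2.16 ± 0.32 SE, adjusted p = 0.0243, limma). The 9 hippocampal arrays lay between 9.26 and 9.87, so the VC arrays were near the hippocampal level and wild-type CA1 was the array that stood apart. A second Lamc1 probe set, under the filter, read 6.09 for the wild type against 6.94 and 6.04 for VC CA1, close to the floor. The difference between the CA1 effect and the hippocampal effect was 2.09 ± 0.37 SE (adjusted p = 0.0978). Without wild-type hippocampal array 2 the CA1 value had an adjusted p of 0.0576, and over all alternatives it ran from 0.0091 to 1.

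The members next in p in CA1 did not pass. Col12a1 read 8.42 in wild-type CA1 against 7.34 and 7.41 in VC, with both VC arrays about 1 log2 unit under wild type and under all 9 hippocampal arrays (-1.04 ± 0.23 SE, adjusted p = 0.109). Its other probe set, under the filter, read 8.49 in wild-type CA1 against 7.64 and 8.27 in VC, not below the hippocampal range of 6.67 to 8.05. Col9a1 read 8.76 in wild-type CA1 against 7.64 and 6.69 in VC (-1.60 ± 0.46 SE, adjusted p = 0.234), and the 2 VC arrays were the lowest of all 12. Timp1 read 9.68 in wild-type CA1 against 11.42 and 10.91 in VC (1.48 ± 0.43 SE, adjusted p = 0.224); wild-type CA1 was under every hippocampal array, and VC array 1 above them all. The dimmer Timp1 probe set, under the filter, was at the floor on all 3 CA1 arrays. Itga7 read 9.66 in wild-type CA1 against 9.07 and 9.14 in VC, a difference of -0.55. Col5a1, a chain that starts type I fibrils, read 10.00 in wild-type CA1 against 9.41 and 9.54 in VC, a difference of -0.53.

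Itgb2 read 7.17 in wild-type CA1 against 8.78 and 8.74 in VC, and both VC arrays lay above all 10 other arrays of the series (1.58 ± 0.49 SE, adjusted p = 0.268). The microglial and macrophage markers summed to 29275 in wild-type CA1 and to 85668 and 83631 in VC CA1, and their part in this was not tested. Itgb5 read 11.05 in wild-type CA1 against 11.71 and 11.07 in VC. Itgav read 11.76 in wild-type CA1 against 11.95 and 12.06 in VC. Itgb1 read 12.08 in wild-type CA1 against 12.53 and 12.21 in VC. For Itgb5 VC array 2 (11.07) lay next to wild type (11.05), while for Itgav and Itgb1 both VC arrays lay above it with the brightest probe set. The other tested Itgav probe set went the other way, at 9.74 in wild-type CA1 against 8.75 and 7.81 in VC (-1.46 ± 0.38 SE, adjusted p = 0.184), and that of Itgb1 read 10.89 against 11.27 and 10.28 (-0.12 ± 0.32 SE, adjusted p = 0.946).

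The CA1 effect was set against the hippocampal effect, and 0 members passed (0.0566% of all tested probe sets), while 4 had an unadjusted p under 0.05 (5.81%). The difference of the effects was above 0 for Lamc1 and Timp1 and below 0 for Col12a1 and Col9a1. The test for Timp1 gave 1.17 ± 0.50 SE, adjusted p = 0.847, for Col12a1 -1.04 ± 0.27 SE, adjusted p = 0.348 and for Col9a1 -1.68 ± 0.54 SE, adjusted p = 0.573.

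**Figure D3:**
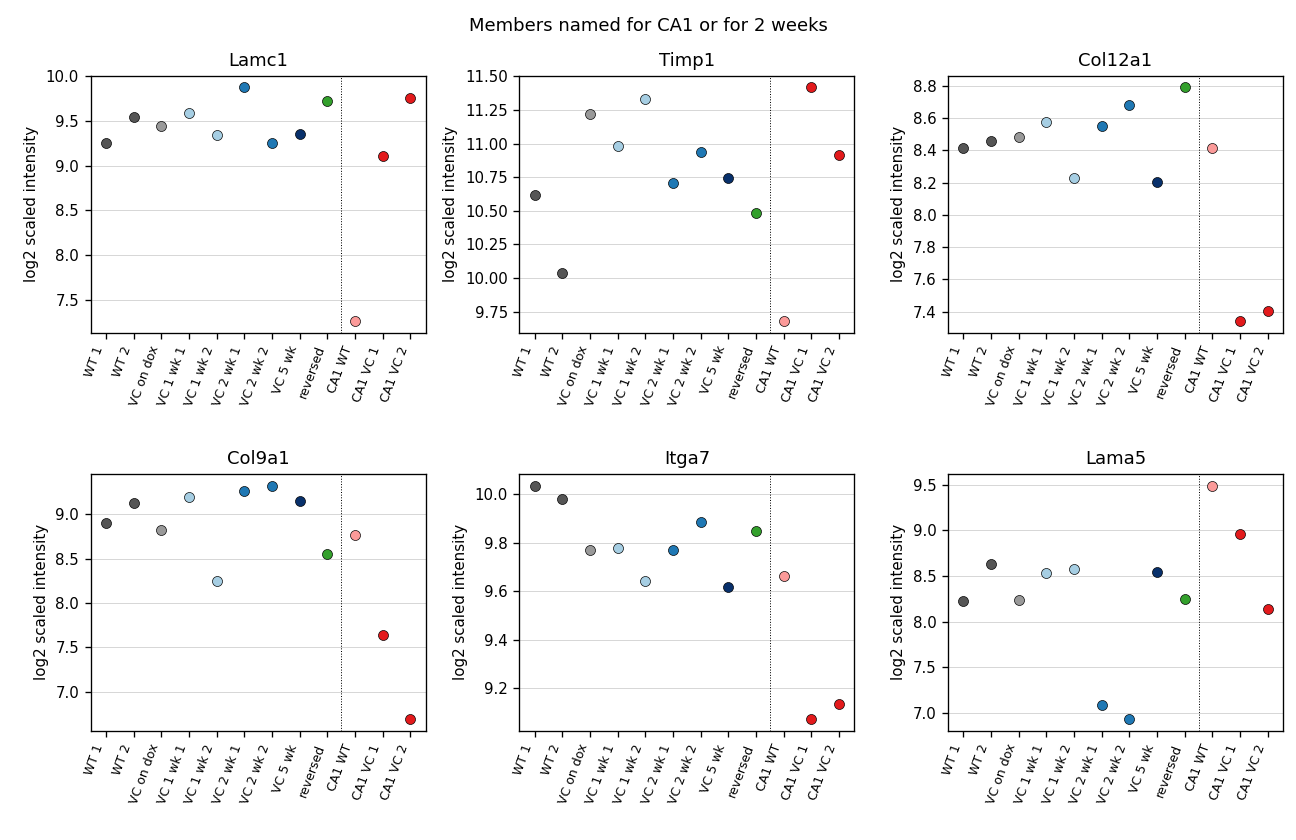
Log2 scaled intensity (vertical axis) of Lamc1, Timp1, Col12a1, Col9a1, Itga7 and Lama5 on the 12 arrays (horizontal axis; the dotted line parts hippocampus from CA1). Wild-type CA1 is the low point for Lamc1 (7.27), the 2 VC CA1 arrays are the low points for Col12a1 and Col9a1, and for Lama5 the low points are the 2 arrays of 2 weeks (7.08 and 6.93).

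CA1 differed from whole hippocampus in 19 of 35 tested members, and 10 of the 15 lower ones were collagens. Region nearly coincides with the scale of the deposited values. With that scale as a block only 2 of the 19 passed, Col1a1 and Itgb7, beside 288 of all 7069 tested probe sets (2539 without the block). The mean of wild-type and VC CA1 was set against the mean of never-induced and induced hippocampus, with the reversed array outside the contrast. Of 35 members 19 passed (35.9% of all tested probe sets), 4 higher in CA1 (11.4% of all) and 15 lower (24.5% of all), and 21 had an unadjusted p under 0.05 (47.1% of all). The median was -0.36 over the members and -0.13 over all tested probe sets. By role, 3 of 4 fibrillar collagens, 7 of 11 other collagens, 1 of 5 laminins, 2 of 5 other integrin chains, Itgb7 and 1 of 2 MMPs were lower, and Col4a1, Itgb2, Itgav and Itgb1 were higher.

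The lower collagens included both chains of type I collagen. Col1a1 read from 9.62 to 10.31 in the 9 hippocampal arrays (median 10.02), and 8.86 in wild-type CA1 against 9.22 and 9.03 in VC (-1.02 ± 0.15 SE, adjusted p = 0.00115). Col1a2 read from 11.72 to 12.42 (median 12.06), and 11.44 in wild-type CA1 against 11.40 and 11.45 in VC (-0.60 ± 0.15 SE, adjusted p = 0.0135). Col5a1 read from 10.36 to 10.95 (median 10.74) against 9.41 to 10.0 in CA1 (-1.0 ± 0.14 SE, adjusted p = 0.00071). For all 3 genes every CA1 array lay below every hippocampal array with these probe sets. Their dimmer probe sets, all under the filter, did not show this. That of Col1a1 read 6.04 to 7.69 in hippocampus and 6.04 in wild-type CA1 against 8.22 and 8.17 in VC, above all 9 hippocampal arrays. Those of Col1a2 and Col5a1 overlapped between the regions (6.05 to 7.92 against 6.04 to 7.08, and 6.04 to 7.16 against 6.27 to 7.71).

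The type VI chains Col6a1 and Col6a2 were lower as well. Col6a1 read from 10.50 to 11.04 in hippocampus (median 10.73), and 10.23 in wild-type CA1 against 9.77 and 9.93 in VC (-0.73 ± 0.15 SE, adjusted p = 0.00507). Col6a2 read from 8.93 to 9.59 (median 9.39), and 8.45 in wild-type CA1 against 8.58 and 8.47 in VC (-0.81 ± 0.17 SE, adjusted p = 0.00503). Neither overlapped between the regions with these probe sets. The dimmer Col6a1 probe set, under the filter, did (6.04 to 7.42 in hippocampus against 6.04 to 7.21 in CA1). Col6a3 spread widely, with 7.17 in wild-type CA1 against 6.51 and 8.06 in VC, and did not pass (-0.91 ± 0.40 SE, adjusted p = 0.101).

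Col19a1 (8.03 in wild-type CA1 against 7.77 and 7.46 in VC) and Col26a1 (8.03 in wild-type CA1 against 7.42 and 7.96 in VC) also lay under all 9 hippocampal arrays, with -0.97 ± 0.22 SE, adjusted p = 0.0074 and -0.72 ± 0.18 SE, adjusted p = 0.0126. Col26a1 read from 8.15 to 8.90 in hippocampus. Col7a1 (-0.49 ± 0.15 SE, adjusted p = 0.029), Col9a1 (-1.03 ± 0.27 SE, adjusted p = 0.0148) and Col12a1 (-0.56 ± 0.14 SE, adjusted p = 0.0111) were lower too, with arrays of the regions overlapping. For Col9a1 and Col12a1 the wild-type CA1 values, 8.76 and 8.42, lay inside the hippocampal range and only the VC arrays lay below it. The other Col12a1 probe set, under the filter, was not lower in CA1. It read 6.67 to 8.05 in hippocampus and 8.49 in wild-type CA1 against 7.64 and 8.27 in VC. In CA1 Col7a1 read 8.08 in wild-type CA1 against 8.38 and 8.31 in VC, and its call was lost without wild type 2 (adjusted p = 0.0597, limma) or VC CA1 array 1 (0.0518).

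The basement membrane genes were divided. Col4a1 was higher in CA1, where it read 11.00 in wild-type CA1 against 10.85 and 10.18 in VC, than in hippocampus, where it read from 9.48 to 10.40 (median 10.03). The difference was 0.79 ± 0.25 SE, adjusted p = 0.0301, and VC array 2 lay inside the hippocampal range. The call was lost without the filter (adjusted p = 0.0681, limma), without VC on dox (0.059), without wild type 2 (0.0533) and without VC CA1 array 1 (0.0993). Col4a2 read 11.33 in wild-type CA1 against 11.07 and 10.64 in VC and did not pass (-0.09 ± 0.14 SE, adjusted p = 0.634). Lamc1 passed as lower (-1.10 ± 0.18 SE, adjusted p = 0.00188), which rests on the wild-type array: VC CA1 against induced hippocampus gave -0.05 (adjusted p = 0.887). Lama2 read 8.34 in wild-type CA1 against 8.34 and 7.44 in VC. Lamb1 read 9.38 in wild-type CA1 against 9.44 and 8.78 in VC. Lama5 read 9.49 in wild-type CA1 against 8.96 and 8.13 in VC. None of these 3 laminins passed, and for each VC array 2 was the lowest of the CA1 arrays.

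Among the integrins Itgb7, whose other probe set was at the floor on all 12 arrays, had the smallest p of all members. It read from 9.09 to 9.68 in hippocampus (median 9.54) and 7.81 in wild-type CA1 against 8.16 and 8.64 in VC, so all CA1 arrays were lower (-1.38 ± 0.16 SE, adjusted p = 0.000362). Itga3 read 8.25 in wild-type CA1 against 7.23 and 8.01 in VC (-0.91 ± 0.22 SE, adjusted p = 0.0107), and its second tested probe set, at -1.99 ± 0.20 SE (adjusted p = 0.000179), was lower too. Itga7 passed as lower (-0.45 ± 0.12 SE, adjusted p = 0.0141), while its other tested probe set read -0.16 ± 0.20 SE (adjusted p = 0.562).

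Itgb1 was higher in CA1, and all 3 CA1 arrays lay above all 9 hippocampal ones (0.69 ± 0.15 SE, adjusted p = 0.00613). Its second tested probe set was higher as well (0.55 ± 0.19 SE, adjusted p = 0.0417). Itgav (0.68 ± 0.23 SE, adjusted p = 0.0412) and Itgb2 (0.89 ± 0.28 SE, adjusted p = 0.0323) passed with arrays that overlapped between the regions. Both calls were lost without the filter (adjusted p = 0.0833 and 0.0767). That of Itgav was also lost when any 1 of 7 arrays was left out: VC on dox, wild type 2, either array of 1 week, 2-week array 2 or either VC CA1 array (0.0576 to 0.0805). That of Itgb2 was lost in a robust fit with a mean-variance trend (adjusted p = 0.1), and without wild type 2 (0.0584), VC CA1 array 1 (0.0733) or VC CA1 array 2 (0.0521). The other tested probe set of Itgav read 0.04 ± 0.22 SE (adjusted p = 0.899). Itgb5 did not pass (0.47 ± 0.24 SE, adjusted p = 0.142), but its second probe set was lower (-0.68 ± 0.15 SE, adjusted p = 0.00703), so for Itgav and Itgb5 the call depends on the probe set.

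Mmp14 was lower: it read from 10.20 to 10.83 in hippocampus and 10.06 in wild-type CA1 against 9.89 and 9.63 in VC (-0.54 ± 0.15 SE, adjusted p = 0.0185), without overlap. Mmp17 read 10.75 in wild-type CA1 against 10.81 and 10.56 in VC. Timp2 read 9.19 in wild-type CA1 against 8.88 and 9.82 in VC. Timp3 read 10.79 in wild-type CA1 against 10.88 and 11.20 in VC. None of these passed. Mmp2 lay under the filter: it read from 7.07 to 8.08 in hippocampus and 6.04 in wild-type CA1 against 6.72 and 6.04 in VC, with all 3 CA1 arrays below all 9. Without the filter 6 of the 40 members under it passed in this comparison, against 24.4% of all probe sets: Itgal was higher and Mmp2, Mmp13, Col5a2, Col8a1 and Itgb2l were lower. For Itgal, Mmp2 and Col8a1 most arrays of 1 region were at the floor. For Mmp13 most arrays of both regions were, and its highest value was 6.62. Col3a1, the partner of type I collagen in many fibrils, read 8.15 in wild-type CA1 against 7.09 and 7.41 in VC, opposite in direction to Col1a1, without passing (0.75 ± 0.24 SE, adjusted p = 0.0571).

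The transgene state and the deposited scale bear on this comparison. Its contrast is the mean of 2 others, wild-type CA1 against never-induced hippocampus and VC CA1 against induced hippocampus. The 19 members were chosen by that mean, so a shared direction in the 2 is partly built in. Some of these differences lay near 0: -0.04 for Col12a1 and -0.19 for Col9a1 in wild type, and -0.05 for Lamc1 in VC. All 19 members kept their direction when wild-type CA1 was set against never-induced hippocampus (4 passed: Col1a1, Col5a1, Itgb7 and Lamc1) and when VC CA1 was set against induced hippocampus (15 passed). Of all 7069 tested probe sets 827 passed in the former comparison and 1376 in the latter. The 3 CA1 arrays and wild-type hippocampal array 1 were deposited on a lower scale than the other 8 (trimmed means of 500.3 to 500.4 against 3002), so region and scale cannot be told apart except through that 1 array: with the scale as a block all 19 kept their direction. After quantile normalization all 19 kept their direction and 12 passed, 3 higher and 9 lower. Of all 7069 tested probe sets 2163 passed in place of 2539, with 57.1% of those called lower in place of 68.2%. The median of all tested probe sets then moved from -0.13 to -0.03.

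Marker lists of other cell types gave the following values by region, beside 11.4% of all tested probe sets higher and 24.5% lower in CA1. The 9 choroid plexus markers summed to 5507 to 16970 in hippocampus and 5235 to 6578 in CA1, with 4 of 6 tested lower in CA1; Cldn2 was at the floor on 11 arrays. The 15 markers of fibroblasts and meninges summed to 12233 to 16671 and 11010 to 13149, with 3 of 9 tested lower, and Foxc1 (11 arrays) and Aldh1a2 (10) were mostly at the floor. The 18 endothelial and pericyte markers summed to 8027 to 10057 and 11424 to 14739, so all 3 CA1 arrays were above hippocampus, and 6 of 13 tested were higher. The 19 microglial and macrophage markers summed to 19891 to 70720 and 29275 to 85668, with 5 of 16 tested higher, 1 lower and a median log2 difference of 0.90. The 15 astrocyte markers summed to 116091 to 183904 and 83975 to 127046, with 1 of 14 tested higher and 4 lower. The 14 neuronal markers summed to 98604 to 113198 and 78085 to 81434, with 6 of 13 tested lower. The 17 markers of T, B and granulocyte cells summed to 22569 to 32264 and 18415 to 26042, with 2 of 6 tested lower (median -0.34). Of these 17, 4 to 6 were at the floor on hippocampal arrays and 5 to 8 on CA1 arrays. The 9 oligodendrocyte markers summed to 38711 to 48497 and 47001 to 47861, with 1 of 7 tested higher and 1 lower. The part of these cell types in the members' differences was not tested.

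**Figure D4:**
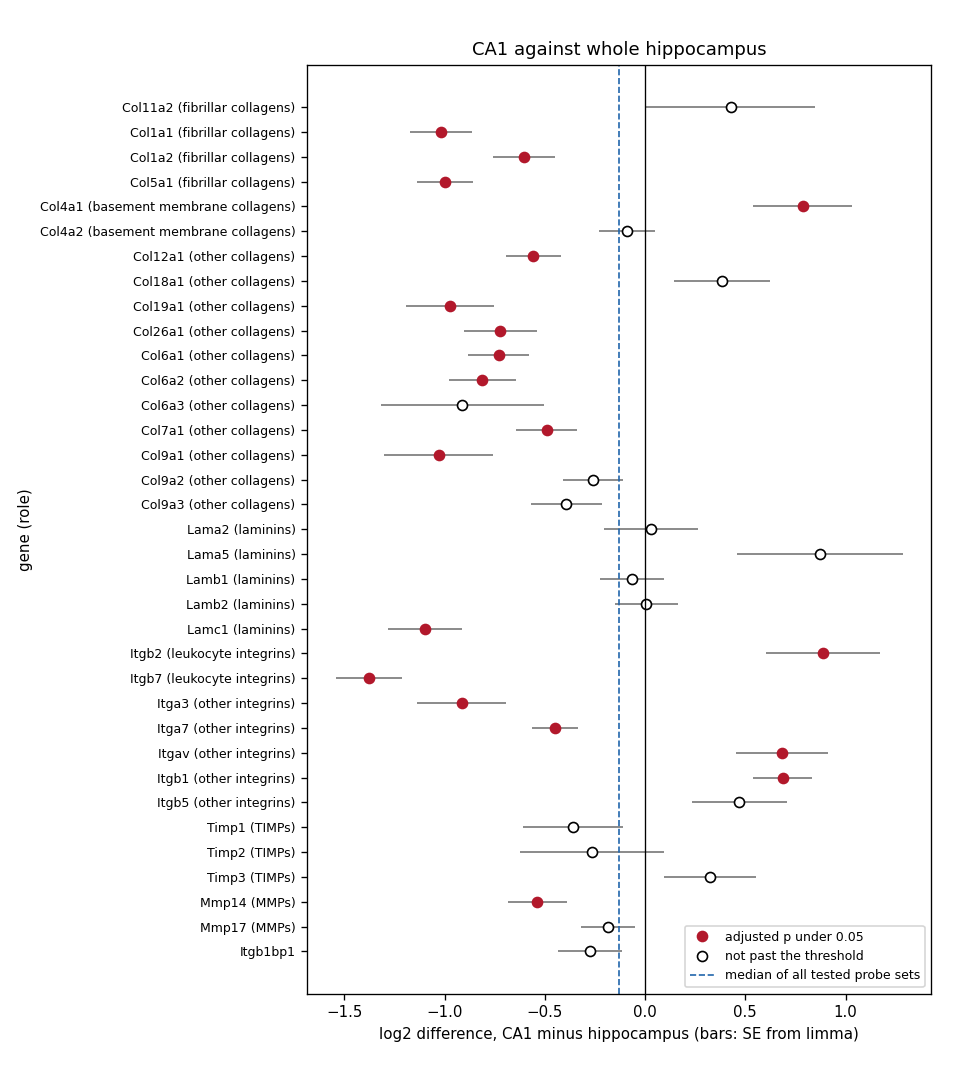
Log2 difference of CA1 minus hippocampus (horizontal axis, bars are SE from limma) for the 35 tested members (vertical axis, by role); filled points had an adjusted p under 0.05 and the dashed line is the median of all tested probe sets, -0.13. Of the filled points 15 lie left of 0 and 4 right of it: Col4a1, Itgb2, Itgav and Itgb1.

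Other genes of the matrix and of adhesion were counted in the same comparisons, where 11.4% of all tested probe sets were higher and 24.5% lower in CA1 than in hippocampus. Of 36 further matrix proteins on the array 23 were tested, and 0 passed in induced hippocampus, at 5 weeks or in VC CA1. In CA1 against hippocampus 4 were higher and 8 lower (median -0.34). Biglycan (Bgn, 0.81) and fibronectin (Fn1, 0.51) were among the higher. Lumican (Lum, -1.15), decorin (Dcn, -0.75), both proteoglycans that bind collagen fibrils, and reelin (Reln, -1.10), a glycoprotein of interneurons, were among the lower. Lum and Dcn are also on the list of fibroblast markers.

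Of 12 genes for collagen processing 11 were tested, and none passed with the transgene, while 2 were higher and 3 lower in CA1. Of 12 tested further proteases and inhibitors, A2m, a broad protease inhibitor of plasma, rose at 5 weeks (1.73 ± 0.23 SE, adjusted p = 0.0109). In CA1 it was at the floor on the wild-type array and read 9.80 and 9.38 in VC, at least 11.8-fold higher against that floor (adjusted p = 0.0154, limma). Ctss, a lysosomal cysteine protease that microglia secrete, rose at 5 weeks (1.60 ± 0.26 SE, adjusted p = 0.0242) and is also on the list of microglial markers. Of 22 tested genes of the machinery that links integrins to actin, none passed with the transgene in hippocampus or CA1, and 6 were higher and 2 lower in CA1 against hippocampus. Of 6 tested counter-receptors and TGF-beta genes, 1 was lower in CA1 and none passed otherwise.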

How the data were processed

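The 12 Affymetrix MG-U74Av2 arrays measured RNA of pooled mouse hippocampus (9 arrays) and of CA1 (3). Per the labels' protocols, polyA RNA was isolated from TRIzol-extracted RNA and biotin-labelled target was hybridised. The deposited values are linear intensity values, made in GCOS, an Affymetrix program, per the submitters' processing notes. Not given in the sources used here were its version, algorithm and scaling. The trimmed mean (2% left out at each end) of the deposited values was 500.3 to 500.4 on 4 arrays and 3002 on 8.

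Arrays were rescaled (trimmed mean 1000), floored at the 20th percentile (65.7) and log2 transformed. Of 12422 probe sets that are no controls, 7069 were tested, those above their array's median on at least 2 arrays. Symbols came from the platform's annotation (10833 probe sets with 1 symbol, 396 with several, 1193 with none).

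The test was that of limma 3.58.1 (lmFit and eBayes, R 4.3.3), two-sided, with Benjamini-Hochberg adjustment over all 7069 and a threshold of 0.05. A fit with 5 levels gave the induced, reversed, CA1 and region comparisons, a fit with 7 levels those by week. The code was checked on simulated data. Depth does not apply to arrays, whose number limits the precision. The p-values measure the spread between arrays within a group, which may be technical in part. In the fit with 5 levels the induced group joined arrays of different weeks off dox, so that spread also holds differences between weeks. The never-induced group joined wild-type arrays with the VC array on dox in each fit. No pool size is given for CA1 in the sources used here.

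Members and gene lists were chosen with earlier results of these data known. Genes were named with all values when they passed in any comparison, had 1 of the 5 smallest p in one, or belonged to a fixed list of leukocyte integrins, TIMPs, MMPs and main collagen, laminin and integrin chains. Col11a2, Lamb2, Mmp3, Mmp7, Mmp10, Mmp12 and Mmp13 were added after their values or promoters were seen. Alternatives covered normalization, floor, filter, probe set, scale block, replicate block and leaving out arrays.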

Additional observations from a re-analysis of the deposited data

Results flagged for a closer look

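Single arrays stood apart in 4 of the 36 members named with values, by the gap to the nearest array divided by the range of the group. Chance gives such a gap in about 1 in 20 groups, and 6 of 70 pairs of gene and group showed one. Col9a1 on 1-week array 2 read 8.24 and was the lowest of the 5 induced arrays (next 9.15) and of the 8 induced and never-induced arrays (next 8.82). Itgal on 2-week array 2 read 6.32 where the next of both groups read 6.06, all close to the floor. Mmp17 on 1-week array 2 read 10.59, the lowest of the 8 arrays (next 10.86). Timp2 on 1-week array 1 read 10.76, the highest of the 8 (next 9.69). The cause of these gaps was not tested.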

How the results depend on the processing

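Counts of members called in CA1 against hippocampus were the least stable: 19 became 12 after quantile normalization, 34 with values as deposited and 2 with the deposited scale as a block. Over all 7069 tested probe sets 2539 became 2163, 6802 and 288 in the same settings. With wild-type CA1 against never-induced hippocampus, an alternative chosen after seeing the data, 4 passed, beside 827 of all tested probe sets. For VC against wild-type CA1 the count of 1 became 0 with values as deposited and 2 without the filter (Lamc1 and Col12a1), and 0 to 1 when single arrays were left out. The difference between the CA1 and hippocampal effects gave 1 member, Lamc1, without the filter, and 0 to 1 with arrays left out. At 2 weeks the count was 0 to 1 (Lama5) with arrays left out. The other counts within hippocampus were 0 in every alternative that was run. Without the filter 292 of all 12422 probe sets passed for VC against wild-type CA1, and 228 for the difference of the effects.

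With values as deposited, where arrays of 2 scales are compared, signs turned in these cases: Col7a1 (0.54) and Itga7 (0.67) for induced hippocampus, Col4a1 (0.40) and Col7a1 (0.47) at 1 week, Col19a1 (0.13) at 5 weeks, Col18a1 (0.10), Col7a1 (0.38) and Mmp17 (0.59) after reversal, and Col4a1 (-1.37), Itgav (-1.47), Itgb1 (-1.47) and Itgb2 (-1.14) for CA1 against hippocampus. That construction shifts the median of all probe sets by -2.28 in CA1.

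Replicate numbers did not pair the arrays: same-numbered arrays of 2 groups deviated together with correlations of 0.04, 0.02 and -0.10. With the replicate block on the numbered hippocampal arrays 0 members passed, and Lama5 at 2 weeks read -1.42 (adjusted p = 0.148, limma). Groups of 1 array had no block and no value without their array. The precision is limited by 1 to 3 arrays per group and, for 40 of 75 members, by signal that passed the median of its array on 1 array at most.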
